A study of Mus musculus with 72 samples.

Results

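Chemokines are small secreted proteins that direct the movement of leukocytes, and 10 genes of this system were followed through mouse acute promyelocytic leukaemia (APL) treated with retinoic acid (RA). They were chosen by name, with no threshold on a measured value but with earlier results of these data known. They are the ligands Ccl6, Ccl9, Ccl3, Ccl4, Ccl17 and Cxcl2, the receptors Ccr1, Cxcr2 and Cxcr4, and the atypical receptor Ccrl2. All 10 were among the 19938 genes measured, each with 1 probe set. After 6 h or 12 h of RA, Ccrl2, Ccl6 and Ccl9 were the members that rose in most of the leukaemias carrying PML/RARA. Ccl17 rose with RA in viral leukaemias with intact Pml, and its RA effect was smaller in the pml-/- leukaemias. Cxcr2 was the member that differed most between untreated pml-/- and Pml WT leukaemias.

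A chemokine binds a G protein-coupled receptor on the target cell, and the bound receptor signals through Gi proteins to Rac GTPases and phosphoinositide 3-kinase gamma, which reorganise the actin cytoskeleton. G protein-coupled receptor kinases and beta-arrestins then switch the receptor off. In bone marrow, CXCR4 holds myeloid cells near stroma that makes CXCL12, whereas CXCR2, the receptor of CXCL2 and related ligands, drives the release of neutrophils. APL is a leukaemia of promyelocytes in which the retinoic acid receptor RARA is fused to another protein, most often PML and rarely PLZF, and RA induces the cells with PML/RARA to mature towards granulocytes.

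All samples were total RNA of bone marrow from mice with APL, hybridised to 72 Affymetrix Mouse Gene 1.0 ST arrays in 16 groups. In the transgenic model, on a wild-type background, PML/RARA marrow was sampled with RA and without treatment at 6 h (8 RA arrays and 4 untreated arrays) and at 12 h (8 and 4), and PLZF/RARA marrow likewise (4 and 2 at each time). In the viral transduction model, all leukaemias carried PML/RARA, on a pml-/- or a Pml wild-type (WT) background, each with 8 RA arrays and 4 untreated arrays at 6 h and 4 and 2 at 12 h. The sources used here do not give the promoter that drives the transgenes, the vector, the recipient mice, the RA dose, or how many animals or separate leukaemias stand behind a group. The p-values therefore measure the spread between these arrays, which may be technical.

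The authors' values are log2 signals, with array medians between 6.56 and 6.81. The models shared none of the 4 labelled batches, so levels were compared only within a model. The defining promyelocyte marker Mpo and 14 of 14 promyelocyte and neutrophil genes were measured, and the mean signal of these genes was between 9.80 and 12.70 on each array. In bulk marrow, fewer cells of a type and less RNA per cell cannot be told apart.

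The promoters of the members whose RA effects are described most fully are shown first, because they let the position of retinoid receptor motifs be set beside those effects. RefSeq windows on GRCm38.p6, from 250 bases before to 50 after an annotated start, matched 9 of the 10 members with 11 windows in all. The windows were searched on both strands for AGGTCA (the core motif of retinoid receptors), TTNNGNAA (C/EBP), GAGGAA (PU.1), GGANNTTCC (NF-kB) and TGANTCA (AP-1). Capitals mark a match on either strand, and overlapping matches were kept. The windows lie at chr11:83593038-83593337 (minus strand, Ccl6), chr11:83578587-83578886 (minus strand, Ccl9), chr9:111057469-111057768 (minus strand, Ccrl2) and chr8:94810203-94810502 (plus strand, Ccl17).
Ccl6: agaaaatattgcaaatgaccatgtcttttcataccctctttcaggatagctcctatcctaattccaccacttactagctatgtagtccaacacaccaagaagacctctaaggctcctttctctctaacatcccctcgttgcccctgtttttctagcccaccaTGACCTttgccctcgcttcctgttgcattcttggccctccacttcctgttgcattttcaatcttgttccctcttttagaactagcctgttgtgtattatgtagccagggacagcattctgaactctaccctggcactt
Ccl9: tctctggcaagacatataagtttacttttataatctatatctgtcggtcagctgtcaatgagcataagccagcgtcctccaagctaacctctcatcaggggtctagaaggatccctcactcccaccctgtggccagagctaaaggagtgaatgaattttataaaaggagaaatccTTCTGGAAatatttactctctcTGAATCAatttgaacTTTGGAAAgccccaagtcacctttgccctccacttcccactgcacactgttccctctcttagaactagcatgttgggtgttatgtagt
Ccrl2: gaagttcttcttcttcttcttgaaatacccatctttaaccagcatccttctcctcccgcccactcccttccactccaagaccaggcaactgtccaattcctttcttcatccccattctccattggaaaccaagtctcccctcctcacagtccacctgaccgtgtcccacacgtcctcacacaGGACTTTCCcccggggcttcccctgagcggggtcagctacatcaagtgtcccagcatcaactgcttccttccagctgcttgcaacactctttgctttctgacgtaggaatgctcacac
Ccl17: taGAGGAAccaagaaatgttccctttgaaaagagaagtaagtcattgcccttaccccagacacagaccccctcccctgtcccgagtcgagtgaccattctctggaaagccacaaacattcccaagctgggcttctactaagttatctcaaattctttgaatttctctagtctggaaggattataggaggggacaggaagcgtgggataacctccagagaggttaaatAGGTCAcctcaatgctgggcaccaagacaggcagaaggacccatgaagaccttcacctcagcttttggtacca

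The Ccl6 window held 1 AGGTCA, 88 bases before the start, and the Ccl17 window held 1, 23 bases before the start. That Ccl17 start lies inside the RefSeq gene, which begins at 94809380, and no window covered the gene's first base. The Ccl9 window held no AGGTCA but 2 C/EBP matches and 1 AP-1 match, and Ccrl2, which has 3 annotated starts, had an NF-kB match in the window shown and no AGGTCA in any of the 3. Among the other members, AGGTCA was found in the windows of Cxcr2 (2 matches) and Ccl3 (1 match). Of all 32851 mouse windows, 16.3% held AGGTCA, 40.7% the C/EBP motif, 28.3% the PU.1 motif, 4.3% the NF-kB motif and 7.8% the AP-1 motif. These matches describe letters in a short window and say nothing of what binds there.

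The number of members past the threshold differed between the leukaemias. The members were chosen with earlier results of these data known, so setting their counts beside all genes is a description, not a test. The RA effect was the log2 fold change of RA over untreated arrays at the same time in a limma fit to all 36 arrays of a model, and a gene was called when its Benjamini-Hochberg adjusted p over the 19938 genes was below 0.05. In PML/RARA transgenics, 3 of 10 members were called higher and 0 lower at 6 h, where 5.81% of all genes were called higher and 8.54% lower. At 12 h, 4 were called higher and 0 lower, against 9.88% and 11.7% of all genes. The median member changed by 0.18 at 6 h and 0.22 at 12 h, whereas the median gene changed by 0.02 and -0.01. In PLZF/RARA transgenics, limma called 0 members at 6 h (1.45% of all genes higher and 0.747% lower), and 3 had an unadjusted p below 0.05. At 12 h, 1 member was called higher and 1 lower, with 2.46% of all genes called higher and 1.57% lower.

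In pml-/- leukaemias, 1 member was called higher and 0 lower at 6 h, with 4.97% of all genes higher and 6.38% lower, and 2 were called higher and 0 lower at 12 h, with 4.22% and 1.83%. In Pml WT leukaemias, 4 were called higher and 0 lower at 6 h, with 5.44% of all genes higher and 4.44% lower. The same 4 were called higher at 12 h, and 0 lower, with 3.03% and 3.07% of all genes. Ccrl2 was the member called in each of the 6 RA effects with PML/RARA, and it was not called in the PLZF/RARA effects. RA and untreated ranges did not overlap for 4 of 10 members at each time in PML/RARA transgenics (12.5% and 13.4% of all genes). In PLZF/RARA transgenics it was 5 at 6 h and 6 at 12 h (17.9% and 23.5% of all genes). In pml-/- leukaemias it was 1 and 5 (6.34% and 29.8%), and in Pml WT leukaemias 3 and 5 (5.92% and 28.2%). With 4 RA and 2 untreated arrays such separation was common.

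**Figure D1:**
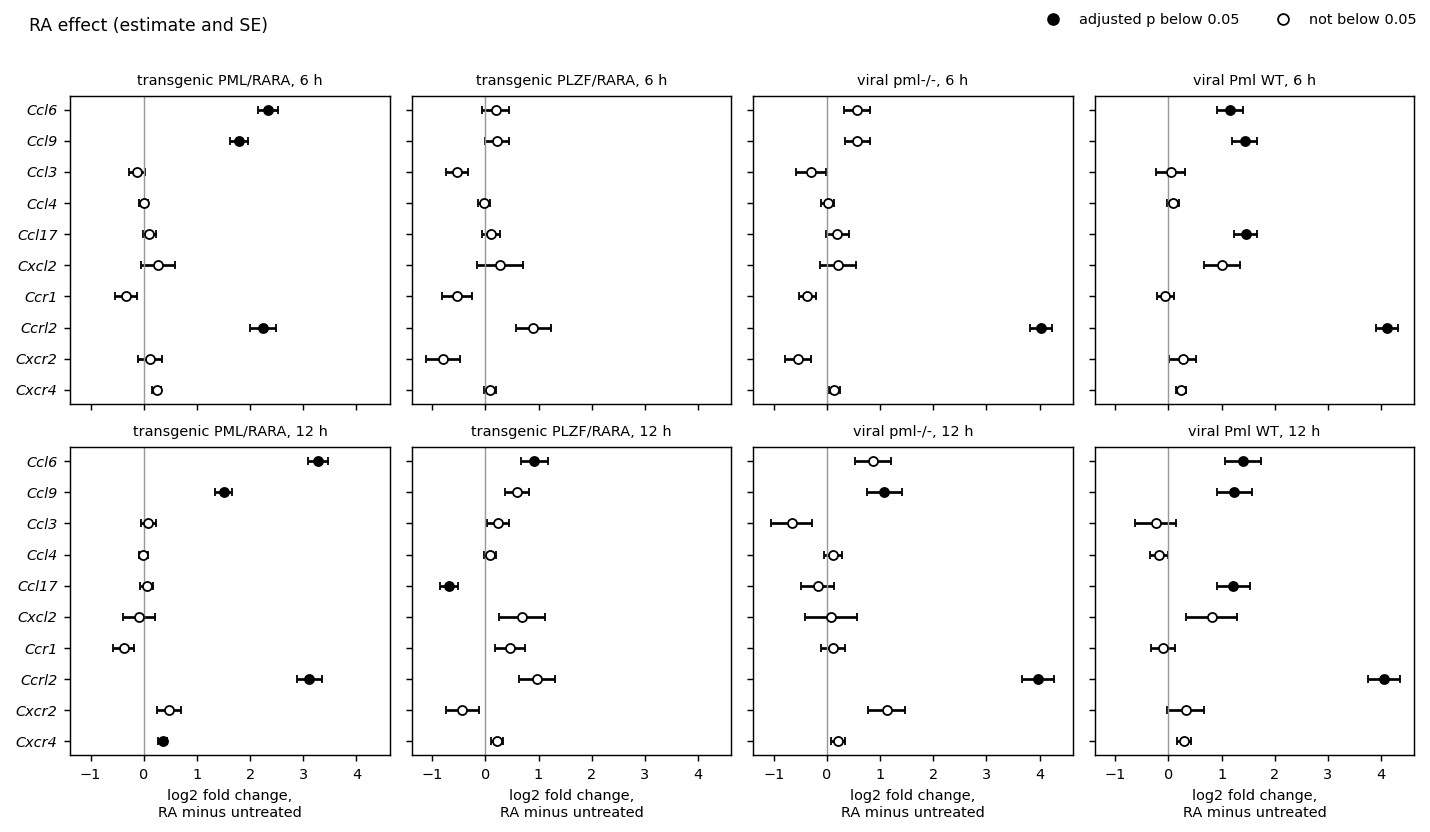
Log2 fold change of RA over untreated arrays (point) with its SE (bar) for the 10 members in 4 leukaemias, at 6 h (upper row) and 12 h (lower row). Filled points have an adjusted p below 0.05; Ccrl2 lies near 4 in the viral panels and below 1 in both PLZF/RARA panels.

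Ccl6, a rodent chemokine of myeloid cells that binds CCR1, had the highest RA effect estimate of the 10 members in PML/RARA transgenics at both times, close to that of Ccrl2. Among PML/RARA transgenics at 6 h it had a lowest, median and highest log2 signal of 10.22, 11.05 and 11.45 in RA arrays, and 8.33, 8.47, 8.82 and 9.10 in untreated arrays. At 12 h the RA arrays had 11.16, 11.90 and 12.21, and the untreated arrays 8.34, 8.34, 8.63 and 8.79. The RA and untreated arrays did not overlap at either time. Ccl6 rose 5.04-fold at 6 h (log2 2.33, SE 0.19, adjusted p = 2.36e-11) and 9.68-fold at 12 h (log2 3.28, SE 0.18, adjusted p = 5.59e-15).

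Among PLZF/RARA transgenics, Ccl6 had 10.79, 10.88, 10.97 and 11.11 in RA arrays at 6 h and 10.58 and 10.91 in untreated arrays, which overlapped (log2 fold change 0.19, SE 0.26, adjusted p = 0.777). At 12 h it had 11.11, 11.31, 11.50 and 11.57 in RA arrays and 10.34 and 10.56 in untreated arrays, and it rose by 0.92 (SE 0.26, adjusted p = 0.0307). That call ended when any of 4 of the 6 arrays was left out: without untreated replicate 1 (0.81, adjusted p = 0.231) or 2 (1.03, 0.111), and without RA replicate 1 (0.88, 0.0688) or 4 (0.86, 0.068). The untreated PLZF/RARA arrays all lay above the untreated PML/RARA arrays. The order of the group means in this model was PML/RARA RA at 12 h, PLZF/RARA RA at 12 h, PML/RARA RA at 6 h, PLZF/RARA RA at 6 h, PLZF/RARA untreated at 6 h and at 12 h, then PML/RARA untreated at 6 h and 12 h. Neighbours overlapped except around the PLZF/RARA untreated group at 12 h.

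Among pml-/- leukaemias, Ccl6 was high before treatment. Its lowest, median and highest signal at 6 h were 11.80, 12.51 and 12.77 in RA arrays, against 11.37, 11.54, 12.05 and 12.39 in untreated arrays, and the groups overlapped (log2 fold change 0.56, SE 0.24, adjusted p = 0.156). The 12 h signal was 12.82, 12.97, 12.98 and 13.00 in RA arrays and 12.07 in both untreated arrays (0.87, SE 0.34, adjusted p = 0.158). The groups did not overlap at 12 h, and with the untreated arrays of both times pooled the 12 h effect was called (1.00, adjusted p = 0.0102). Among Pml WT leukaemias at 6 h, the RA arrays had 11.19, 12.26 and 12.67 and the untreated arrays 10.66, 10.97, 11.00 and 11.08. Ccl6 rose 2.24-fold there (log2 1.16, SE 0.24, adjusted p = 0.00142), with no overlap. Within batch 3 alone the change was 0.89 (adjusted p = 0.125) and within batch 4 alone 1.44.

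Ccl6 at 12 h in Pml WT leukaemias had 11.52, 11.91, 12.71 and 12.77 in RA arrays and 10.78 and 10.88 in untreated arrays, a 2.64-fold rise (log2 1.40, SE 0.34, adjusted p = 0.0107). The groups did not overlap, and the 4 RA arrays spread over more than a log2 unit. Without untreated replicate 1 the adjusted p was 0.108, and without untreated replicate 2 it was 0.157. In these viral leukaemias all 6 untreated pml-/- arrays lay above all 6 untreated Pml WT arrays.

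Ccl9, a mouse chemokine that also binds CCR1, rose with RA in the PML/RARA transgenics without overlap between groups. Its lowest, median and highest signal were 11.10, 11.50 and 11.81 in RA arrays at 6 h, against 9.54, 9.55, 9.87 and 9.99 in untreated arrays. At 12 h they were 11.27, 11.59 and 11.79 in RA arrays, against 9.43, 10.01, 10.37 and 10.40 in untreated arrays. The rise was 3.45-fold at 6 h (log2 1.79, SE 0.17, adjusted p = 5.58e-10) and 2.84-fold at 12 h (log2 1.51, SE 0.16, adjusted p = 6.26e-09). All 16 RA arrays lay above all 8 untreated arrays.

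Within PLZF/RARA transgenics, Ccl9 had 9.18, 9.70, 9.79 and 9.92 in RA arrays and 9.37 and 9.50 in untreated arrays at 6 h (log2 fold change 0.21, SE 0.23, adjusted p = 0.716). By 12 h it had 9.72, 9.84, 10.29 and 10.51 in RA arrays and 9.34 and 9.64 in untreated arrays (0.60, SE 0.23, adjusted p = 0.155). The groups overlapped at 6 h and did not at 12 h, but neither effect was called. With the untreated arrays of both times pooled, the 12 h effect was called (0.63, adjusted p = 0.0315).

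Within pml-/- leukaemias at 6 h, Ccl9 had a lowest, median and highest signal of 10.48, 11.24 and 11.46 in RA arrays, against 10.14, 10.38, 10.72 and 10.91 in untreated arrays (log2 fold change 0.57, SE 0.23, adjusted p = 0.122). At 12 h the 4 RA arrays had 11.36, 11.45, 11.55 and 11.68 and the 2 untreated arrays 10.20 and 10.67, and Ccl9 rose by 1.08 (SE 0.33, adjusted p = 0.0454). This call, close to the threshold, ended in 5 of the 6 fits that left out an array of those groups: without RA replicate 1 (adjusted p = 0.0545), RA replicate 2 (0.112), RA replicate 4 (0.088), untreated replicate 1 (0.0989) or untreated replicate 2 (0.535).

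Within Pml WT leukaemias at 6 h, the RA arrays had 9.90, 11.27 and 11.80 for Ccl9 and the untreated arrays 9.33, 9.62, 9.77 and 9.91. The lowest RA array lay just under the highest untreated array, and Ccl9 rose 2.71-fold (log2 1.44, SE 0.23, adjusted p = 5.73e-05). At 12 h it had 10.67, 11.05, 11.16 and 11.21 in RA arrays, against 9.65 and 9.91 in untreated arrays, a rise of 1.24 (SE 0.33, adjusted p = 0.0184). Within batch 3 alone the 6 h change was 0.93 (adjusted p = 0.0744), within batch 4 alone 1.94. The 12 h call ended without untreated replicate 1 (adjusted p = 0.112) or 2 (0.259).

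**Figure D2:**
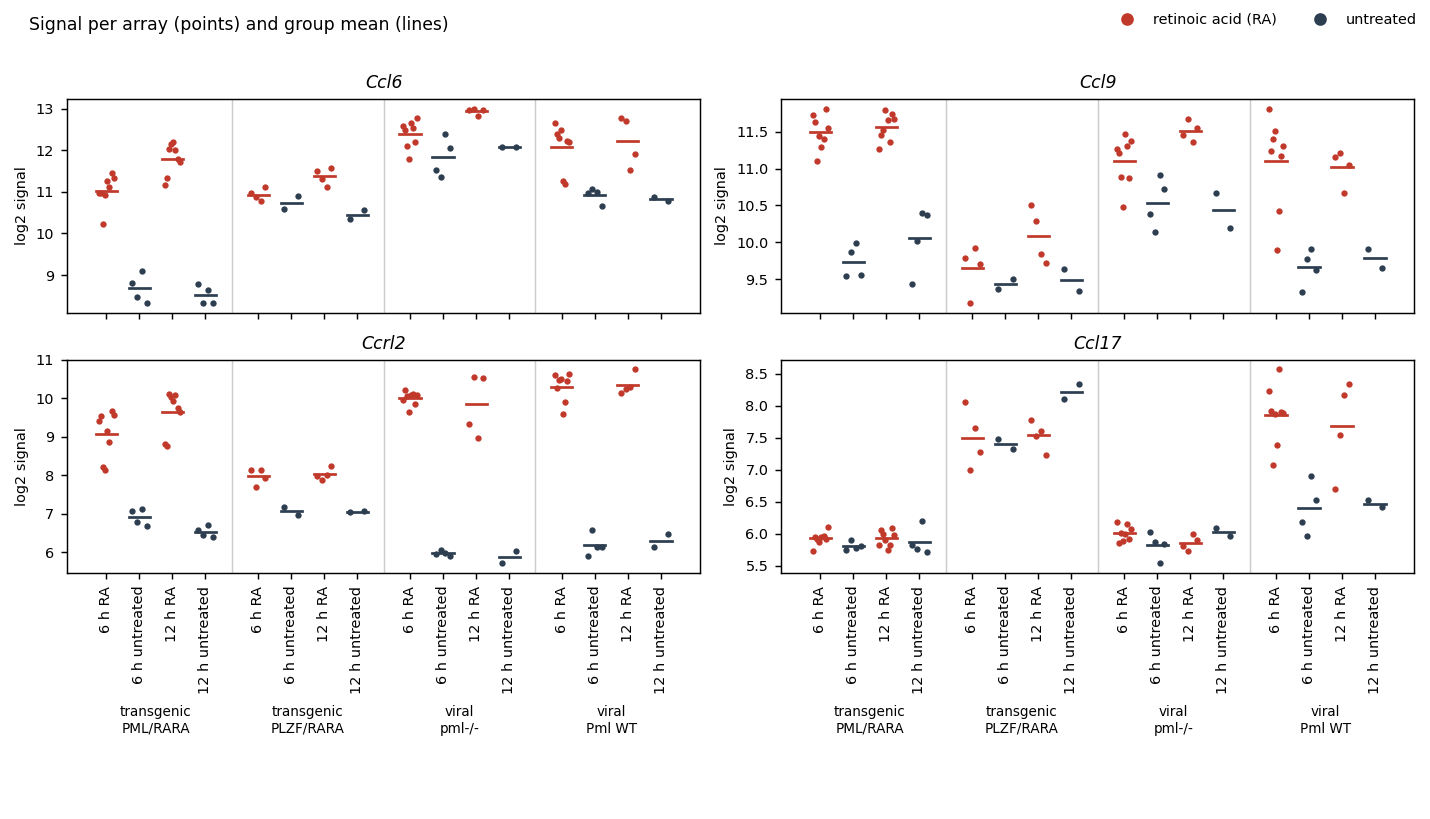
Log2 signal of Ccl6, Ccl9, Ccrl2 and Ccl17 on each array (points) and the group mean (line), RA in red and untreated in dark blue, for 4 leukaemias at 6 h and 12 h. Ccrl2 shows no RA array within the range of its untreated arrays, and Ccl17 stays between 5.54 and 6.19 in pml-/- leukaemias.

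Ccrl2, an atypical receptor that binds the chemoattractant chemerin and presents it without signalling through G proteins, gave the largest RA effects of the 10 members in the viral model. In pml-/- leukaemias at 6 h, the RA arrays had a lowest, median and highest signal of 9.63, 10.07 and 10.22 and the untreated arrays 5.91, 5.96, 5.98 and 6.06. At 12 h the RA arrays had 8.98, 9.33, 10.53 and 10.55 and the untreated arrays 5.71 and 6.04. The rise was 16.3-fold at 6 h (log2 4.03, SE 0.21, adjusted p = 9.84e-15) and 15.7-fold at 12 h (log2 3.97, SE 0.30, adjusted p = 3.08e-10). RA and untreated arrays were separated by more than 2 log2 units at both times.

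In Pml WT leukaemias, Ccrl2 had 9.60, 10.47 and 10.64 in RA arrays at 6 h and 5.91, 6.13, 6.14 and 6.59 in untreated arrays. The 12 h signal was 10.14, 10.23, 10.28 and 10.76 in RA arrays and 6.14 and 6.47 in untreated arrays. The rise was 17.3-fold at 6 h (log2 4.11, SE 0.21, adjusted p = 1.17e-14) and 16.6-fold at 12 h (log2 4.05, SE 0.30, adjusted p = 3.52e-10). On both backgrounds the untreated signals lay near or below the array medians (between 6.56 and 6.81), which limits what the size of these rises can show. The pml-/- minus Pml WT difference in RA effect was -0.08 (SE 0.26, adjusted p = 1), so no difference was detected at this precision.

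Within PML/RARA transgenics, Ccrl2 had 8.15, 9.28 and 9.67 in RA arrays at 6 h, against 6.68, 6.78, 7.08 and 7.12 in untreated arrays. By 12 h it had 8.76, 9.84 and 10.12 in RA arrays, against 6.39, 6.44, 6.57 and 6.71 in untreated arrays. It rose 4.73-fold at 6 h (log2 2.24, SE 0.25, adjusted p = 2.17e-08) and 8.66-fold at 12 h (log2 3.11, SE 0.24, adjusted p = 4.82e-12). The RA arrays lay above all untreated arrays at both times.

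In PLZF/RARA transgenics, Ccrl2 had 7.70, 7.92, 8.13 and 8.14 in RA arrays and 6.97 and 7.17 in untreated arrays at 6 h. At 12 h it had 7.87, 7.98, 8.0 and 8.25 in RA arrays and 7.05 and 7.06 in untreated arrays. The RA arrays were higher without overlap at both times, but neither effect was called: 0.90 at 6 h (SE 0.34, adjusted p = 0.176) and 0.97 at 12 h (SE 0.34, adjusted p = 0.108). Of all genes, 17.9% at 6 h and 23.5% at 12 h had no overlap between these groups. With the untreated arrays of both times pooled, the 12 h effect was called (0.96, adjusted p = 0.0251).

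Ccl17, the CCR4 ligand made by dendritic cells and by some macrophages, was called higher with RA in Pml WT leukaemias alone. Among Pml WT leukaemias at 6 h, it had 7.08, 7.90 and 8.57 in RA arrays and 5.97, 6.19, 6.53 and 6.91 in untreated arrays. The 12 h signal was 6.70, 7.54, 8.17 and 8.34 in RA arrays and 6.41 and 6.52 in untreated arrays. The groups did not overlap, and Ccl17 rose 2.75-fold at 6 h (log2 1.46, SE 0.22, adjusted p = 1.65e-05) and 2.33-fold at 12 h (log2 1.22, SE 0.31, adjusted p = 0.0123). The 12 h call ended without RA replicate 4 (adjusted p = 0.0526), untreated replicate 1 (0.113) or untreated replicate 2 (0.175). Of 9 dendritic cell markers, 0 were called higher and 1 lower in the RA effect of Pml WT leukaemias at 6 h, and likewise at 12 h. Of all genes, 5.44% were called higher and 4.44% lower at 6 h, and 3.03% and 3.07% at 12 h. The part of dendritic cells in the Ccl17 values was not tested.

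Among pml-/- leukaemias, Ccl17 stayed low on all arrays, below the median signal of each array. Such low signal limits what an array can show of it. Ccl17 had 5.86, 6.01 and 6.19 in RA arrays at 6 h and 5.54, 5.84, 5.88 and 6.03 in untreated arrays (log2 fold change 0.19, SE 0.22, adjusted p = 0.676). By 12 h it had 5.74, 5.80, 5.89 and 6.00 in RA arrays and 5.96 and 6.09 in untreated arrays (-0.17, SE 0.31, adjusted p = 0.897). All 12 RA arrays of pml-/- leukaemias lay below all 12 RA arrays of Pml WT leukaemias. The untreated pml-/- minus Pml WT difference of Ccl17 was not called. Its estimate ran between -0.57 and -0.43 over the fits that left out a single array.

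In PML/RARA transgenics, Ccl17 had 5.73, 5.94 and 6.11 in RA arrays at 6 h and 5.75, 5.78, 5.81 and 5.90 in untreated arrays, and 5.74, 5.95 and 6.09 in RA arrays at 12 h and 5.72, 5.76, 5.82 and 6.19 in untreated arrays. These PML/RARA values lay below the lowest array median of 6.56, and such low signal limits what an array can show. Among PLZF/RARA transgenics at 6 h Ccl17 had 6.99, 7.28, 7.65 and 8.06 in RA arrays and 7.32 and 7.47 in untreated arrays. All 12 PLZF/RARA arrays lay above all 24 PML/RARA arrays. At 12 h the PLZF/RARA groups had 7.23, 7.52, 7.61 and 7.77 in RA arrays and 8.10 and 8.34 in untreated arrays, and Ccl17 fell by 0.68 on the log2 scale (SE 0.17, adjusted p = 0.0137). That fall was not called without untreated replicate 2 (-0.57, adjusted p = 0.246) or with the untreated arrays of both times pooled (-0.27, adjusted p = 0.318).

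None of the other 3 ligands passed the threshold in an RA effect, and the estimates of Ccl3 and Cxcl2 had wide errors. Ccl3, a ligand of CCR1, was not called in any RA effect, and its estimates ran between -0.66 (pml-/- at 12 h, SE 0.39) and 0.24 (PLZF/RARA at 12 h, SE 0.21). Within PLZF/RARA transgenics at 6 h, Ccl3 had 7.33, 7.55, 7.71 and 7.75 in RA arrays and 7.77 and 8.46 in untreated arrays, which did not overlap (-0.53, SE 0.21, adjusted p = 0.214). Leaving out 1 array moved Ccl3 between -1.10 and -0.23 in pml-/- leukaemias at 12 h, and between -0.87 and -0.18 at 6 h and 0.09 and 0.39 at 12 h in PLZF/RARA transgenics. Ccl4, a chemokine closely related to Ccl3, stayed between 5.60 and 6.66 on all 72 arrays, and its RA effects ran between -0.17 (Pml WT at 12 h, SE 0.16) and 0.11 (pml-/- at 12 h, SE 0.16). Its mean signal had a percentile of 32.1 among all genes, and low signal limits what an array can show of it.

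Cxcl2, a neutrophil attractant that binds CXCR2, had a mean signal with a percentile of 15.9 among all genes and a median below 6 in each of the 16 groups. Single arrays stood far above the rest: 7.97 on RA replicate 3 of Pml WT at 6 h, 7.24 on an RA array of Pml WT at 12 h and 7.68 on an RA array of PLZF/RARA at 12 h. Within Pml WT leukaemias at 6 h, the lowest, median and highest signal were 4.91, 5.53 and 7.97 in RA arrays, against 4.52, 4.60, 4.95 and 4.95 in untreated arrays (1.01, SE 0.34, adjusted p = 0.0596). RA replicate 3 also held the highest Ccl3 (11.00) and Ccl4 (6.66) of that group. Without RA replicate 3 the effect of Cxcl2 was 0.70 (adjusted p = 0.0803), and without RA replicate 5 it passed the threshold (adjusted p = 0.0344).

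Cxcr2, which sends neutrophils out of the marrow, was the receptor with the largest difference between leukaemias. Within pml-/- leukaemias at 6 h it had a lowest, median and highest signal of 6.82, 7.55 and 8.82 in RA arrays, against 7.98, 8.21, 8.40 and 8.49 in untreated arrays. At 12 h it had 9.42, 9.43, 9.60 and 10.01 in RA arrays, against 8.19 and 8.78 in untreated arrays. The groups overlapped at 6 h (log2 fold change -0.54, SE 0.25, adjusted p = 0.181) and did not at 12 h (1.13, SE 0.35, adjusted p = 0.052), and neither effect was called. With the untreated arrays of both times pooled, both were called (-0.69, adjusted p = 0.0428, and 1.27, adjusted p = 0.0014). The 6 h effect of Cxcr2 was also called without RA replicate 8 (-0.72, adjusted p = 0.0215), and the 12 h effect with dim genes left out (adjusted p = 0.0395).

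In the RA effect of pml-/- leukaemias at 12 h, 4.22% of all genes were called higher and 1.83% lower. Beside the 12 h values of Cxcr2 there, 7 of 14 promyelocyte and neutrophil markers were called higher with RA and 1 lower. The mean signal of that list was between 10.51 and 11.16 in the RA arrays and between 9.80 and 10.33 in the untreated arrays, and its part in the Cxcr2 values was not tested. In Pml WT leukaemias, Cxcr2 had 11.26, 11.63 and 11.92 in RA arrays at 6 h and 10.98, 11.33, 11.46 and 11.50 in untreated arrays. The 12 h signal was 11.16, 11.42, 11.91 and 11.98 in RA arrays and 11.27 and 11.33 in untreated arrays. These groups overlapped at both times, and all 18 Pml WT arrays lay above all 18 pml-/- arrays.

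Among PML/RARA transgenics, Cxcr2 had 10.03, 10.55 and 11.00 in RA arrays at 6 h and 10.04, 10.11, 10.34 and 10.94 in untreated arrays. By 12 h it had 9.86, 10.55 and 11.21 in RA arrays and 9.72, 9.87, 10.18 and 10.31 in untreated arrays (0.48, SE 0.22, adjusted p = 0.14). In PLZF/RARA transgenics it was lower with RA without overlap, with 8.61, 9.36, 9.42 and 9.56 in RA arrays and 9.90 and 10.17 in untreated arrays at 6 h (-0.80, SE 0.31, adjusted p = 0.212). At 12 h it had 9.27, 9.56, 9.69 and 9.89 in RA arrays and 10.03 and 10.04 in untreated arrays (-0.43, SE 0.31, adjusted p = 0.555). Neither PLZF/RARA effect was called.

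Cxcr4, the CXCL12 receptor that retains cells in marrow, varied least of the receptors, with a residual SD of 0.14 among transgenic arrays and 0.16 among viral arrays. Within PML/RARA transgenics at 6 h it had 12.00, 12.03 and 12.33 in RA arrays and 11.66, 11.78, 11.89 and 11.98 in untreated arrays. The 12 h signal was 12.07, 12.24 and 12.36 in RA arrays and 11.74, 11.80, 11.89 and 12.06 in untreated arrays. The RA arrays lay above the untreated arrays at both times. The 6 h effect missed the threshold (0.25, SE 0.09, adjusted p = 0.0565), and the 12 h effect was called (0.36, SE 0.08, adjusted p = 0.00161), a 1.28-fold rise. The 6 h effect of Cxcr4 was called with no batch term (adjusted p = 0.0255), with another quantile normalization (0.0471), with dim genes left out (0.0437), with a trended, robust prior (0.0395) and with the untreated arrays of both times pooled (0.00714). It was also called without RA replicate 5 (0.0485), 6 (0.0466) or 7 (0.0479).

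Outside the PML/RARA transgenics no RA effect on Cxcr4 passed the threshold with all arrays and unpooled controls. The estimates of Cxcr4 in Pml WT leukaemias were 0.24 at 6 h (SE 0.10, adjusted p = 0.117) and 0.29 at 12 h (SE 0.14, adjusted p = 0.251). The 6 h effect of Cxcr4 there was called with the untreated arrays of both times pooled (0.28, adjusted p = 0.0308) and without RA replicate 6 (0.29, adjusted p = 0.0362). Ccr1, the receptor of Ccl3, Ccl6 and Ccl9, was not called in any RA effect. Its estimates ran between -0.53 in PLZF/RARA transgenics at 6 h (SE 0.28, adjusted p = 0.392) and 0.46 in PLZF/RARA transgenics at 12 h (SE 0.28, adjusted p = 0.447), and its RA and untreated arrays did not overlap in either. In pml-/- leukaemias at 6 h it had 9.62, 10.23 and 10.73 in RA arrays and 10.42, 10.50, 10.67 and 10.74 in untreated arrays (-0.37, SE 0.16, adjusted p = 0.151).

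**Figure D3:**
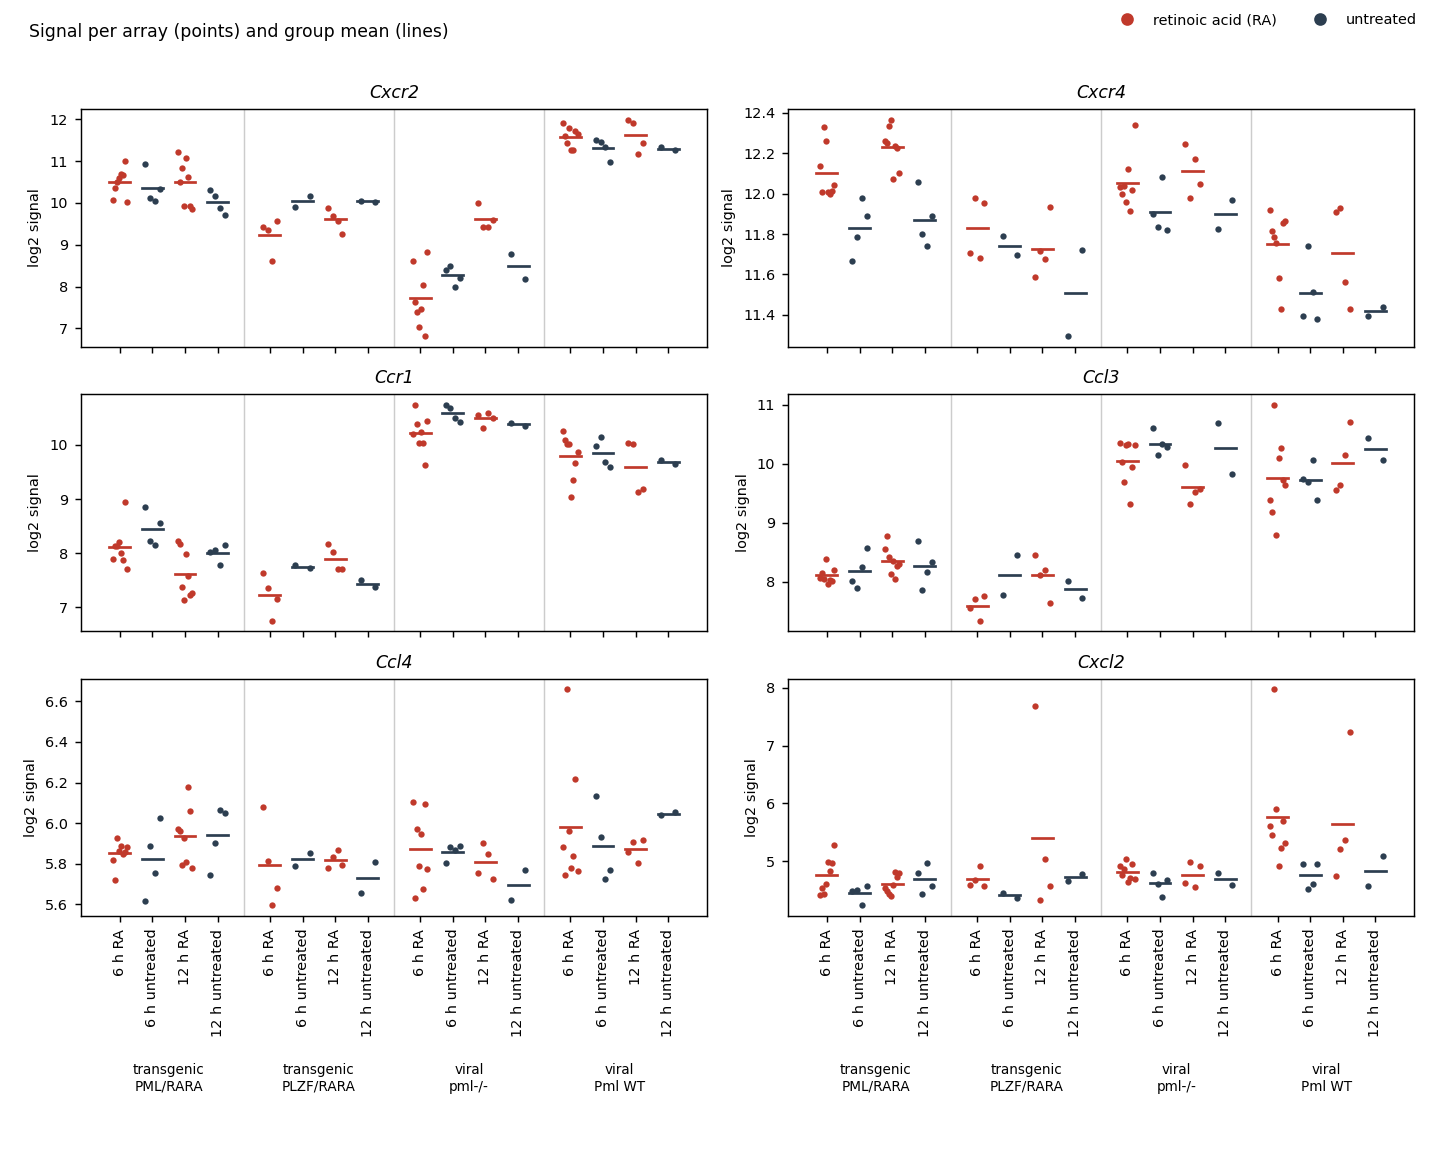
Log2 signal of Cxcr2, Cxcr4, Ccr1, Ccl3, Ccl4 and Cxcl2 on each array (points) and the group mean (line), RA in red and untreated in dark blue, for 4 leukaemias at 6 h and 12 h; vertical scales differ between panels. Cxcr2 is lower on each pml-/- array than on any Pml WT array, and Cxcl2 has 3 RA arrays above 7.

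The cell type markers moved in some of these comparisons. In PML/RARA transgenics, RA raised 2 of 14 promyelocyte and neutrophil markers at 6 h and lowered 1, and raised 6 and lowered 3 at 12 h. The mean signal of that list at 12 h was between 11.92 and 12.26 in RA arrays and between 11.68 and 11.83 in untreated arrays. At 12 h RA also raised 4 of 11 monocyte and macrophage markers, 4 of 4 erythroid markers and 3 of 8 stroma and endothelium markers. Among PLZF/RARA transgenics at 12 h, 4 of 14 promyelocyte and neutrophil markers were higher with RA and 0 lower. At 6 h in PML/RARA transgenics, 0 of 4 erythroid markers were called, and 1 of 11 monocyte and macrophage markers was higher and 1 lower. Of all genes in PML/RARA transgenics, 5.81% were called higher and 8.54% lower at 6 h, and 9.88% and 11.7% at 12 h. In PLZF/RARA transgenics at 12 h these shares were 2.46% and 1.57%. The part of these cell types in the rises of Ccl6, Ccl9, Ccrl2 and Cxcr4 was not tested.

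Whether the RA effect differed between PML/RARA and PLZF/RARA transgenics was tested as the difference of the RA effects, averaged over both times. The number of separate leukaemias is not given, so the fusion protein cannot be told apart from other differences between these leukaemias. The RA effect of 4 of 10 members was higher in PML/RARA than in PLZF/RARA transgenics, and that of 0 lower, where 3.35% of all genes were called with a higher and 4.07% with a lower effect. The difference was 2.25 for Ccl6 (SE 0.22, adjusted p = 4.03e-08), 1.24 for Ccl9 (SE 0.20, adjusted p = 7.5e-05), 1.74 for Ccrl2 (SE 0.29, adjusted p = 0.000172) and 0.91 for Cxcr2 (SE 0.27, adjusted p = 0.0354). For Ccl6 the difference was called at 6 h alone (2.14) and at 12 h alone (2.35). Ccl9 was called at 6 h alone (1.57) and not at 12 h alone (0.91, adjusted p = 0.066), Ccrl2 at 12 h alone (2.14) and not at 6 h alone (1.34, adjusted p = 0.101). Ccl17, not called over both times, was called at 12 h alone (0.74, SE 0.21, adjusted p = 0.0458), with 0.00036 at 6 h alone (SE 0.21). The PLZF/RARA fall that enters this 12 h difference was -0.57 without untreated replicate 2. It was -0.27 with the untreated arrays of both times pooled. The PML/RARA values of Ccl17 were low, and the times alone were chosen after seeing the data. Within batch 1, which holds both fusions, the same 4 genes were called, with 2.25 for Ccl6, 1.18 for Ccl9, 1.64 for Ccrl2 and 1.05 for Cxcr2.

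The call of the Cxcr2 difference depended on single arrays and on the prior, with an adjusted p of 0.0555 under a trended, robust prior. It was 0.91 at 6 h alone (adjusted p = 0.272) and 0.91 at 12 h alone (adjusted p = 0.232). It was no longer called in 11 of the 36 fits that left out 1 array, where its estimate ran between 0.80 and 1.00 and its adjusted p reached 0.119. These arrays were PLZF/RARA untreated replicates 1 and 2 at 6 h and at 12 h, PLZF/RARA RA replicate 3 at each time, PML/RARA untreated replicates 2, 3 and 4 at 6 h and PML/RARA untreated replicates 3 and 4 at 12 h.

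Whether the RA effect differed between pml-/- and Pml WT leukaemias was tested in the same way in the viral model. The number of separate leukaemias is not given, so the Pml background cannot be told apart from other differences between these leukaemias. The RA effect of 1 member, Ccl17, was lower in pml-/- than in Pml WT leukaemias and that of 0 members higher, where 0.381% of all genes were called with a lower and 0.752% with a higher effect. The Ccl17 difference was -1.33 (SE 0.27, adjusted p = 0.00612). It was -1.26 at 6 h alone (adjusted p = 0.0586), -1.39 at 12 h alone (adjusted p = 0.329), -1.13 within batch 3 (adjusted p = 0.122) and -1.66 within batch 4 at 6 h (adjusted p = 0.298), so the direction was the same in each and none of these 4 passed the threshold. The call held in all 36 fits that left out a single array, where the estimate ran between -1.49 and -1.22 and the adjusted p reached 0.0339. The estimates for Ccl6 (-0.57, SE 0.30, adjusted p = 0.729) and Ccl9 (-0.51, SE 0.29, adjusted p = 0.779) did not pass the threshold. Of 9 dendritic cell markers, 0 differed in RA effect between the backgrounds, where few genes of any kind did (0.752% higher and 0.381% lower). The part of dendritic cells in the Ccl17 difference was not tested.

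**Figure D4:**
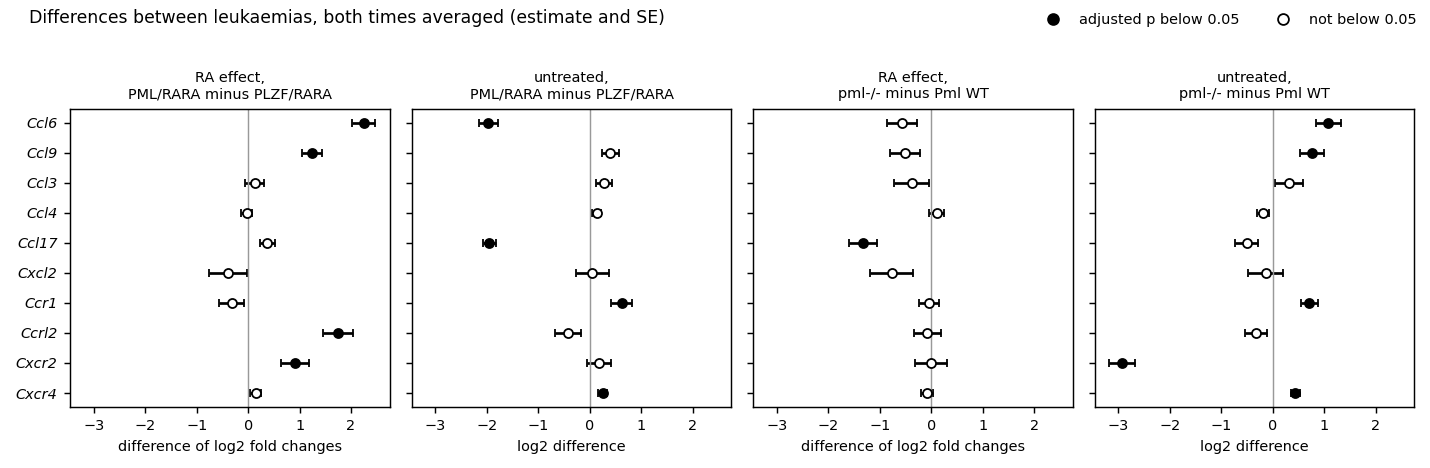
Difference between leukaemias (point) with its SE (bar) for the 10 members, both times averaged; from left, the RA effect and the untreated level for PML/RARA minus PLZF/RARA, then for pml-/- minus Pml WT. Filled points have an adjusted p below 0.05; Ccl17 is the filled point of the third panel, and Cxcr2 lies furthest from 0 in the fourth.

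Before RA the leukaemias already differed. In untreated PML/RARA transgenics, 2 of 10 members were higher than in untreated PLZF/RARA transgenics (13.1% of all genes were higher) and 2 were lower (12.2% of all genes). Ccl6 was lower by -1.97 (SE 0.19, adjusted p = 1.68e-10) and Ccl17 by -1.95 (SE 0.13, adjusted p = 9.01e-15). Ccr1 was higher by 0.63 (SE 0.20, adjusted p = 0.0199) and Cxcr4 by 0.25 (SE 0.09, adjusted p = 0.0313). The Ccr1 call ended without PLZF/RARA untreated replicate 2 at 12 h (adjusted p = 0.068) or untreated replicate 1 (0.0516) or 2 (0.0646) at 6 h. The Cxcr4 call ended in 6 of 12 such fits, and its estimate was 0.14 without PLZF/RARA untreated replicate 1 at 12 h.

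Beside that untreated difference, 8 of 14 promyelocyte and neutrophil markers, 5 of 11 monocyte and macrophage markers, 6 of 9 T and NK cell markers and 4 of 4 erythroid markers were higher in PML/RARA, whereas 4 of 9 basophil, mast cell and eosinophil markers were lower and 1 higher. Among 9 dendritic cell markers, 1 was higher and 1 lower. The part of these cells in the member differences was not tested.

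In untreated pml-/- leukaemias, 4 of 10 members were higher than in untreated Pml WT leukaemias (10.9% of all genes were higher) and 1 was lower (9.92% of all genes). Cxcr2 was lower by -2.93 (SE 0.25, adjusted p = 4.12e-11), with 8.19 and 8.78 in the pml-/- arrays at 12 h against 11.27 and 11.33 in the Pml WT arrays. Ccl6 was higher by 1.08 (SE 0.24, adjusted p = 0.00104), Ccl9 by 0.76 (SE 0.23, adjusted p = 0.0155), Ccr1 by 0.71 (SE 0.16, adjusted p = 0.000964) and Cxcr4 by 0.44 (SE 0.10, adjusted p = 0.000651). The Ccl9 call ended without pml-/- untreated replicate 1 at 12 h (adjusted p = 0.108) or Pml WT untreated replicate 2 at 12 h (adjusted p = 0.082).

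The markers of granulocytes moved with Cxcr2. Of 14 promyelocyte and neutrophil markers, 12 were lower and 2 higher in untreated pml-/- leukaemias, with a median of -1.52. The mean signal of the list at 6 h was between 10.15 and 10.48 in untreated pml-/- arrays and between 11.89 and 12.33 in untreated Pml WT arrays, without overlap. Of 11 monocyte and macrophage markers, 7 were lower and 0 higher. The late granule gene Ltf was lower by -1.41 and the monocyte receptor gene Csf1r by -1.13, whereas the promyelocyte gene Mpo was higher by 0.19. The part of these cells in the difference of Cxcr2 was not tested.

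Between 6 h and 12 h the RA effect of 0 members was called as changed by limma in any leukaemia. Among PML/RARA transgenics 2 members had an unadjusted p below 0.05, and 0.16% of all genes were called higher at 12 h and 0.0702% lower. The estimates of these 2 were 0.94 for Ccl6 (SE 0.26, adjusted p = 0.148) and 0.87 for Ccrl2 (SE 0.34, adjusted p = 0.419). Within PLZF/RARA transgenics 3 members had an unadjusted p below 0.05 (0.0201% of all genes called higher and 0.00502% lower). They were Ccl17 (-0.79, SE 0.24), Ccl3 (0.76, SE 0.29) and Ccr1 (0.99, SE 0.39). Without PLZF/RARA RA replicate 2 at 6 h the change of Ccl17 was called (-0.95, adjusted p = 0.0279).

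Among pml-/- leukaemias 1 member had an unadjusted p below 0.05, with 0.0301% of all genes called higher and 0.00502% lower. It was Cxcr2, with a 12 h minus 6 h difference of 1.67 (SE 0.43, adjusted p = 0.225). Without pml-/- RA replicate 8 at 6 h the difference was called (1.85, adjusted p = 0.0295). Among Pml WT leukaemias 0 members had an unadjusted p below 0.05, and 0% of all genes were called higher and 0% lower. The 12 h groups of the viral model hold only 4 RA arrays and 2 untreated arrays, which limits the precision of these differences.

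The rest of the chemoattractant system was read from 3 lists, of which 31 other ligands, 26 other receptors and 25 signalling genes were measured. The lists were chosen with earlier results of these data known, so their counts beside all genes are a description, not a test. Among the other receptors, Ltb4r1 (the leukotriene B4 receptor), Ptafr (the receptor of platelet-activating factor) and C5ar1 (the complement C5a receptor) rose most widely. Within PML/RARA transgenics, 4 of 26 other receptors were higher with RA at 6 h and 1 lower, and 5 were higher and 1 lower at 12 h. Of all genes there, 5.81% were called higher and 8.54% lower at 6 h, and 9.88% and 11.7% at 12 h. Ltb4r1 rose by 2.11 at 6 h (SE 0.17, adjusted p = 4.9e-11) and by 2.45 at 12 h (SE 0.17), and C5ar1 by 1.26 (SE 0.17) and 1.72 (SE 0.17). In PLZF/RARA transgenics, 1 other receptor was higher at 6 h and 4 at 12 h, with Ltb4r1 at 0.96 (SE 0.24) and 1.29 (SE 0.24). Of all genes in these transgenics, 1.45% were called higher at 6 h and 2.46% at 12 h. The RA effect was larger with PML/RARA than with PLZF/RARA for C5ar1 (1.37, SE 0.20, adjusted p = 2.7e-05), Ltb4r1 (1.15, SE 0.21) and C5ar2, the second C5a receptor (0.89, SE 0.24), and for 0 other receptors smaller. Of all genes, 3.35% were called with a higher and 4.07% with a lower effect.

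Within pml-/- leukaemias, 3 of 26 other receptors were higher with RA at 6 h and 3 at 12 h, and 0 were lower. They included Ptafr, with 2.02 at 6 h (SE 0.17) and 2.03 at 12 h (SE 0.24), and C5ar1, with 1.57 (SE 0.23) and 2.23 (SE 0.32). Within Pml WT leukaemias 6 were higher at 6 h and 3 at 12 h, and 0 lower, with Ptafr at 1.95 (SE 0.17) and 1.84 (SE 0.24) and C5ar1 at 1.17 (SE 0.23) and 1.18 (SE 0.32). Of all genes in pml-/- leukaemias, 4.97% were called higher and 6.38% lower at 6 h, and 4.22% and 1.83% at 12 h. In Pml WT leukaemias these shares were 5.44% and 4.44% at 6 h, and 3.03% and 3.07% at 12 h. Limma called 0 other receptors as different in RA effect between pml-/- and Pml WT leukaemias. Of all genes, 0.752% were called with a higher and 0.381% with a lower effect. Before treatment, 8 of 26 other receptors were lower and 1 higher in pml-/- than in Pml WT leukaemias. Of all genes, 9.92% were lower and 10.9% higher. C5ar1 was lower by -2.45 (SE 0.23, adjusted p = 2.3e-10), C5ar2 by -1.42 (SE 0.23), Ccr2, the receptor of inflammatory monocytes, by -1.37 (SE 0.29) and C3ar1, the C3a receptor, by -1.32 (SE 0.21).

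Among the 31 other ligands, 4 were higher with RA in PML/RARA transgenics at 6 h and 4 at 12 h, and 1 and 3 in PLZF/RARA transgenics, with 0 lower. Cxcl14 was among them in each, with 0.69 at 6 h (SE 0.14) and 0.80 at 12 h (SE 0.14) in PML/RARA and 0.73 (SE 0.20) and 1.36 (SE 0.20) in PLZF/RARA transgenics. Of all genes, 5.81% and 9.88% were higher in PML/RARA transgenics at 6 h and 12 h, and 1.45% and 2.46% in PLZF/RARA transgenics. In Pml WT leukaemias 3 other ligands were higher at 6 h (5.44% of all genes). At 12 h 2 monocyte-attracting ligands were lower there (3.07% of all genes): Ccl2 (-1.50, SE 0.31, adjusted p = 0.0022) and Ccl7 (-1.26, SE 0.22, adjusted p = 0.00041). In pml-/- leukaemias limma called 0 other ligands in either RA effect. Of all genes there, 4.97% were higher and 6.38% lower at 6 h, and 4.22% and 1.83% at 12 h. The RA effect on Ccl7 differed between the backgrounds (0.79, SE 0.19, adjusted p = 0.029), where 0.752% of all genes were called with a higher effect. Before treatment, 7 of 31 other ligands were lower in pml-/- leukaemias and 1 higher, with Ccl2 at -1.45 (SE 0.22), Ccl24 at -1.38 (SE 0.24) and Ccl5 at -1.33 (SE 0.23). The shares of all genes were 9.92% lower and 10.9% higher.

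Of the 25 signalling genes, 6 were higher with RA and 0 lower in PML/RARA transgenics at 6 h, and 9 were higher and 2 lower at 12 h. The shares of all genes were 5.81% higher and 8.54% lower at 6 h, and 9.88% and 11.7% at 12 h. Grk6, a kinase that desensitises CXCR4, rose by 0.85 at 6 h (SE 0.08) and 0.77 at 12 h (SE 0.08), Grk5, a related kinase, by 1.08 (SE 0.13) and 1.13 (SE 0.12), and Rac2, the Rac GTPase of blood cells, by 0.58 (SE 0.08) and 0.80 (SE 0.08). Among PLZF/RARA transgenics 2 signalling genes were higher at 6 h and 3 at 12 h (1.45% and 2.46% of all genes). Grk6 had 0.41 (SE 0.11) and 0.56 (SE 0.11) there. The RA effect was larger with PML/RARA for 4 of 25 (3.35% of all genes): Rac2 (0.55, SE 0.10), Arrb1, a beta-arrestin (0.69, SE 0.12), Grk5 (0.62, SE 0.15) and Grk6 (0.33, SE 0.10). Among pml-/- leukaemias 4 signalling genes were higher and 2 lower at 6 h and 3 higher at 12 h. In Pml WT leukaemias 5 and 3 were higher and 0 lower. Of all genes in pml-/- leukaemias, 4.97% were higher and 6.38% lower at 6 h, and 4.22% higher at 12 h. In Pml WT leukaemias 5.44% of all genes were higher at 6 h and 3.03% at 12 h. Before treatment, 11 of 25 signalling genes were lower in pml-/- leukaemias and 1 higher, against 9.92% and 10.9% of all genes. They were led by Pik3r5, the regulatory subunit of phosphoinositide 3-kinase gamma (-2.18, SE 0.19, adjusted p = 6.9e-11).

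**Figure D5:**
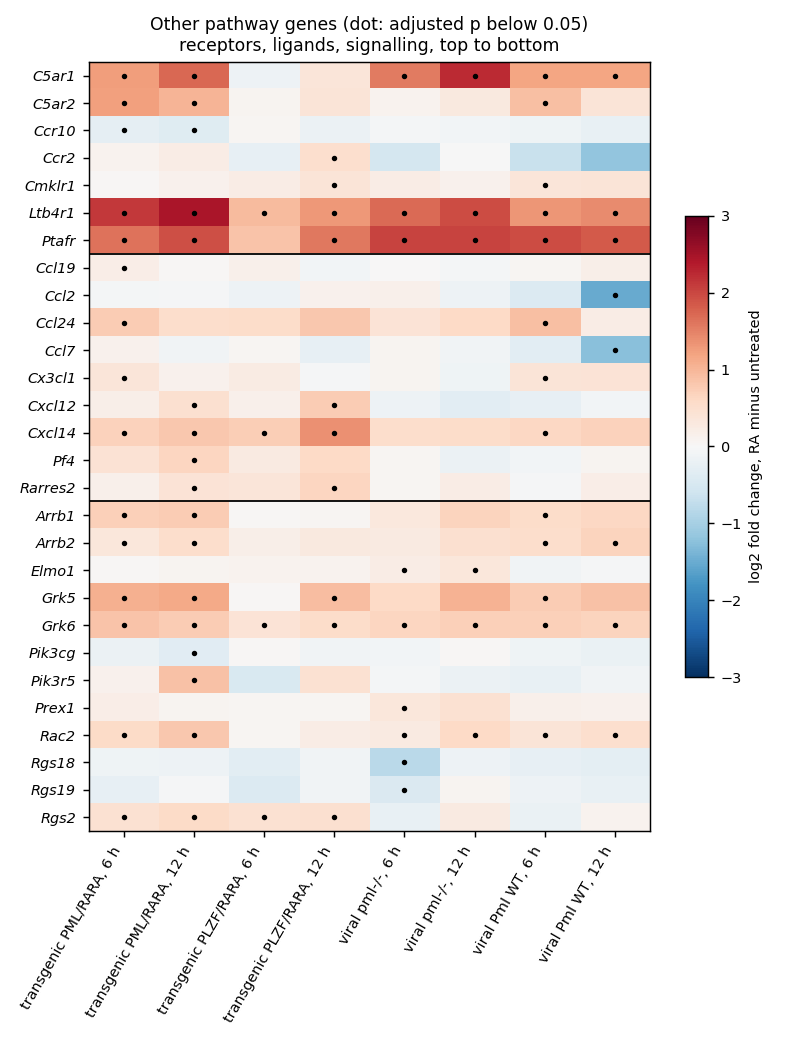
Log2 fold change of RA over untreated arrays (colour) in the 8 RA effects for the 28 listed genes called in at least 1 of them, 7 receptors, 9 ligands and 12 signalling genes from top to bottom; dots mark an adjusted p below 0.05. Ltb4r1 carries a dot in all 8 columns, and Ptafr in 7.

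Some pairs of members varied together between arrays of a group, most of them in the viral model. After the group and batch effects were removed, 45 pairs of members were correlated in each model over 36 arrays, 90 relations in all, with two-sided permutation tests that shuffled arrays within group and batch 100000 times. Pearson's r passed an adjusted p of 0.05 for 9 pairs in the viral model and 2 in the transgenic model. Pairs of other genes were not correlated, so no share over all genes stands beside these counts. In the viral model, Ccl6 and Ccl9, neighbours on chromosome 11, had r = 0.87 and rho = 0.87 (permutation p = 1e-05 for both, the smallest the permutations can give, adjusted p = 0.0009). Without the 2 farthest arrays r was 0.83, within batch 3 it was 0.85 (24 arrays) and within batch 4 0.93 (12 arrays). In the transgenic model the same pair had r = 0.28 and rho = 0.19 (permutation p = 0.115 and 0.321, adjusted p = 0.358 and 0.602), and the difference between the models was not tested.

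Ccr1 and its ligand Ccl6 had r = 0.79 and rho = 0.78 in the viral model (permutation p = 0.00029 and 0.00061, adjusted p = 0.00373 and 0.00849). Without the 2 farthest arrays r was 0.76, with 0.84 within batch 3 and 0.66 within batch 4. Ccr1 and Cxcr4 had r = 0.76 and rho = 0.81 (permutation p = 0.00056 and 9e-05, adjusted p = 0.0063 and 0.00202), with 0.75 without the 2 farthest arrays, 0.81 within batch 3 and 0.53 within batch 4. The relation of Ccl4 and Cxcl2 (r = 0.60, rho = 0.40, permutation p = 0.00117 and 0.00885, adjusted p = 0.00982 and 0.0664) rested on the 2 farthest arrays, without which r was 0.31. In the transgenic model, Ccl6 and Ccrl2 had r = 0.79 and rho = 0.74 (permutation p = 2e-05 and 5e-05, adjusted p = 0.0009 and 0.0015), 0.70 without the 2 farthest arrays and 0.80 within batch 1 (32 arrays). Ccr1 and Cxcr2 had r = 0.75 and rho = 0.64 there (permutation p = 4e-05 and 0.00048, adjusted p = 0.0009 and 0.00849), 0.69 without the 2 farthest arrays and 0.72 within batch 1. The values within batches were added after seeing the data. Arrays share their RNA amount and cell makeup, which these correlations do not separate.

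The genes with the pattern most like a member were found from the 16 group levels, adjusted for batch and centred on each model. For Ccl6 they were Cebpe, a transcription factor of late granulocyte development (r = 0.94), Aff1 (0.93) and AB124611 (0.92). For Ccl9 they were Mospd2 (r = 0.96), Fut4, a fucosyltransferase of leukocytes (0.96), and Sowahc (0.95). For Ccrl2 they were Ehd1, an endocytic ATPase (r = 0.98), Suox, sulfite oxidase (0.97), and Tor1aip1 (0.97). The RA effect on Cebpe was 1.68 in PML/RARA transgenics at 6 h and 0.46 in PLZF/RARA transgenics, and that on Ehd1 was 2.25 and 0.81.

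For Ccl17 the nearest genes were Ttc39b (r = 0.93), Socs2, a cytokine signalling suppressor (0.93), and Cd163, a macrophage scavenger receptor (0.92). For Cxcr2 they were Wdr20 (r = 0.97), Pglyrp1, a neutrophil granule protein (0.97), and Numb (0.96). For Cxcr4 they were Tctn1 (r = 0.95), Gpr108 (0.94) and Ppm1k (0.94), and for Cxcl2 Lgalsl (0.90), Cstdc1 (0.87) and Adtrp (0.87). Ccr1, Ccl4 and Ccl3 had Plekha1 (r = 0.90), Mir710 (0.88) and Rad52 (0.79) as their nearest genes. With Spearman's correlation in place of Pearson's, none of the 3 nearest genes of Ccl17, Ccrl2, Ccl4 or Cxcl2 stayed among the 3 nearest.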

How the data were processed

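The deposited values are log2 signals of 35556 probe sets on 72 arrays. RMA and the affy package made them, per the submitters' processing notes, which give neither versions nor batch handling. The platform annotation gives 21789 probe sets a single symbol, and the brightest per symbol gave 19938 genes, with no filter on dim genes. In R 4.3.3, limma 3.58.1 fitted group means plus batch effects to the 36 arrays of each model, with eBayes defaults, two-sided tests and Benjamini-Hochberg adjustment over all genes. The fit was tested on simulated data. All 16 contrasts used this fit. Single arrays were left out in turn, and contrasts within a single batch came from group-by-batch means fitted to all arrays of a model. Correlations used Python 3.11.15, numpy 2.4.6 and scipy 1.17.1. All members were named, with up to 4 called genes of each pathway list per comparison by moderated t, the 3 genes nearest to a member by Pearson's r, and 8 defining markers. Members and lists were chosen with earlier results of these data known. The number of arrays limits the precision. Of the listed genes, 14 were not analysed here.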

Additional observations from a re-analysis of the deposited data

Results flagged for a closer look

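Single arrays stood apart for 4 of 120 combinations of member and group tested, by the gap to the nearest array over the range of the group. Chance gives about 1 in 20. In PML/RARA transgenics at 6 h, Ccl6 was 10.22 on RA replicate 3, below the other RA arrays, and Ccr1 was 8.94 on RA replicate 7, above them. In pml-/- leukaemias at 12 h, Ccl6 was 12.82 on RA replicate 3, below the other 3 RA arrays. In Pml WT leukaemias at 6 h, Cxcl2 was 7.97 on RA replicate 3, which also held the highest Ccl3 (11.00) and Ccl4 (6.66) of its group. Without these arrays the RA effect of Ccl6 was 2.43 in PML/RARA transgenics at 6 h (adjusted p = 8.6e-13) and 0.91 in pml-/- leukaemias at 12 h (adjusted p = 0.163), and that of Cxcl2 in Pml WT leukaemias at 6 h was 0.70 (adjusted p = 0.0803).

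The RA effects of 5 members differed between leukaemias by the test of the difference itself. With PML/RARA minus PLZF/RARA the differences were 2.25 for Ccl6, 1.24 for Ccl9, 1.74 for Ccrl2 and 0.91 for Cxcr2. With pml-/- minus Pml WT the difference was -1.33 for Ccl17.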

How the results depend on the processing

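All 34 called member values kept their direction under each alternative. The mean of probe sets, the trended, robust prior and leaving out dim genes cannot change a member's estimate, so they do not test direction. Of all 160 member values, 39 changed sign in 126 of 3394 alternative fits, and none of these 39 was called. The member values followed here were chosen after the number of sign changes was seen. Among them, the RA effect on Cxcl2 in PML/RARA transgenics at 12 h ran between -0.18 and 0.00027 over the single-array fits (0.00027 without untreated replicate 3), and the pml-/- minus Pml WT difference of Ccrl2 became 0.00095 in batch 3 alone and ran between -0.20 and 0.064 over the single-array fits (above 0 in 4, with 0.0011, 0.0012, 0.0045 and 0.064). The cause was not tested.

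Of the counts of called members, the PML/RARA minus PLZF/RARA difference had 2 at 6 h alone, against 4. Batch 3 alone gave 2 in Pml WT leukaemias at 6 h, against 4. The pml-/- minus Pml WT difference had 0 in batch 3 alone, in batch 4 alone and at 6 h or 12 h alone, against 1. In pml-/- leukaemias, pooling the untreated arrays gave 2 at 6 h, against 1, and 4 at 12 h, against 2, and a trended, robust prior gave 1 at 12 h. The times alone and batch 4 alone for the difference were chosen after seeing the data. The times alone are contrasts of fewer groups in the fit to all arrays. The batches alone are contrasts of group means within a batch. Their estimates rest on fewer arrays, and their spread comes from all arrays of the model.

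Leaving out 1 array at a time, the counts ran between 0 and 2 in PLZF/RARA transgenics at 12 h, between 1 and 4 in Pml WT leukaemias at 12 h, between 1 and 2 in pml-/- leukaemias at 6 h and at 12 h, and between 2 and 4 for the untreated PML/RARA minus PLZF/RARA difference. For the 12 h minus 6 h change they ran between 0 and 1 in PLZF/RARA transgenics and in pml-/- leukaemias. No paired analysis was possible because the labels give all arrays the same replicate number. Other normalization and no batch term changed no count of called members by more than 1.5 times. The mean of probe sets could not change a member's values, because each member has 1 probe set. With dim genes left out Cxcl2 has no value. Low signal limits Cxcl2, Ccl4, the Ccl17 values of pml-/- leukaemias and PML/RARA transgenics, and the untreated viral values of Ccrl2.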
